A study of Mus musculus with 12 samples.

Results

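The genes described here are 40 genes of the integrated stress response and of amino acid supply, out of 54446 genes in a table of raw RNA-seq counts. They were taken by gene symbol. They comprise 7 stress transcription factors, 6 feedback and effector genes, the 4 kinases of eIF2, 2 enzymes of amino acid synthesis, 9 amino acid transporters and 12 cytosolic tRNA synthetases. Under their own symbols 39 were found, and Mars1 stands under its older symbol Mars. Of the 40, 38 had enough counts to be tested among 14724 genes. Atf3 held 0 to 4 counts and Vldlr 0 to 1 counts in each sample, so no change is given for either.

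In the integrated stress response, a kinase that senses a stress phosphorylates the translation initiation factor eIF2, which slows translation in general while the mRNA of the transcription factor ATF4 is translated better. ATF4 then raises genes for amino acid synthesis, uptake and tRNA charging together with its own partners and inhibitors, among them CHOP (the product of Ddit3), TRIB3 and GADD34 (the product of Ppp1r15a). Severe lack of oxygen is known to start this response in cultured cells, mainly through the kinase PERK (the product of Eif2ak3).

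The cells were NIH3T3, an established line of mouse embryo fibroblasts, and a line made from them that lacks the coding part of N-VEGF, an N-terminal extension of VEGF-A, in the gene Vegfa (dNVEGF deletion in the labels, dN-VEGF below). Each line was sequenced after normoxia and after 16 h below 0.2% oxygen (hypoxia), with 3 samples per group and 12 in all. The wild-type cells had no further alteration, and both lines saw the same oxygen conditions. The deletion was made with Cas9 and a pair of guides, and the inserted reporter and selection cassettes were later removed with VCre. Clones were picked in that work, and the labels do not say which clone or how many gave the RNA, so the line and the deletion cannot be told apart. Vegfa counts cover the whole gene and therefore do not check the deletion. They stood at 86.1, 39.4 and 82.6 CPM (counts scaled by TMM to a common library size) in wild-type normoxia, 277, 272 and 291 in wild-type hypoxia, 37.3, 34.2 and 35.5 in dN-VEGF normoxia and 437, 419 and 430 in dN-VEGF hypoxia.

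Total counts on genes ran from 30519052 to 43056690 per sample. Wild-type normoxia replicate 2 stood apart from the other replicates of its group. Its log2 CPM correlated with theirs at 0.956 and 0.957, where replicates 1 and 3 correlated at 0.996. With the 3 dN-VEGF normoxia samples it correlated at 0.975 to 0.984, so it lay nearer to them than to its own group, and its label is in doubt. Below, wild-type normoxia replicate 2 means the library that carries this label. dN-VEGF normoxia replicate 2 correlated with its group at 0.986, where its replicates 1 and 3 correlated at 0.996. The normoxia samples numbered 2 of the lines also deviated from their group means together (correlation 0.50 across genes). Whether a wrong label or a shift shared by these samples lies behind this was not tested. The main counts of genes called are therefore given with and without wild-type normoxia replicate 2, and other counts on all samples only. TMM factors, which set how a sample's counts are scaled, were 0.825 to 0.837 in dN-VEGF hypoxia and 0.957 to 1.21 in the other groups. The fibroblast label was checked on 8 marker genes, all of them detected, whose summed level was 16900 to 24100 CPM in wild-type normoxia, 27000 to 29200 in wild-type hypoxia, 20300 to 21500 in dN-VEGF normoxia and 40700 to 42800 in dN-VEGF hypoxia. Summed markers of epithelial, endothelial and immune cells reached at most 10, 25.1 and 6.67 CPM, with Epcam at 0 in every sample. The endothelial sum was highest in dN-VEGF hypoxia (20.3 to 25.1), mainly through Cdh5, and the part of these shifts in the results below was not tested.

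In wild-type cells 21 of the 38 tested genes rose after hypoxia, 3 fell and 14 had no call (edgeR's quasi-likelihood test, Benjamini-Hochberg adjusted p below 0.05 over all tested genes). That is 63.2% called, against 36.5% of all tested genes, and 18.2% of all tested genes rose. In dN-VEGF cells 28 rose, 2 fell and 8 had no call, which is 78.9% called against 53.3% of all tested genes, of which 26.9% rose. The median log2 change of the 38 genes was 0.44 in wild-type and 0.97 in dN-VEGF cells, and that of all tested genes was -0.07 and -0.01. A change of at least 2-fold was reached by 8 of the genes in wild-type cells (15.7% of all tested genes) and by 18 in dN-VEGF cells (27.2%). The hypoxia and normoxia samples did not overlap for 23 genes in wild-type cells (45% of all tested genes) and for 36 in dN-VEGF cells (70.6%). Without wild-type normoxia replicate 2, 27 and 36 genes were called, against 54% and 67.1% of all tested genes, of which 27.1% and 32.8% rose, and these shares are the background of each count below that leaves out this sample in the same comparison.

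The balance of rises and falls depended on the scaling. With total counts in place of TMM, the median of all tested genes moved to -0.30 in wild-type and -0.41 in dN-VEGF cells, and the called genes split into 16 higher and 5 lower in wild-type cells and 24 higher and 6 lower in dN-VEGF cells. The share of called genes that rose then went from 87.5% to 76.2% and from 93.3% to 80%. Under total counts 55.3% and 78.9% of the 38 genes were called, against 45.6% and 59.8% of all tested genes. These shares are the background of each total-count result below in the same comparison. A count is relative to its library, so a change in RNA per cell and a change in the number of cells that express a gene cannot be told apart. An error beside a log2 change is the SE of the fit, over all 12 samples unless a sample is said to be left out. The p-values measure the spread between these samples, which may be technical, and a permutation of 3 against 3 samples cannot go below 0.10.

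**Figure D1:**
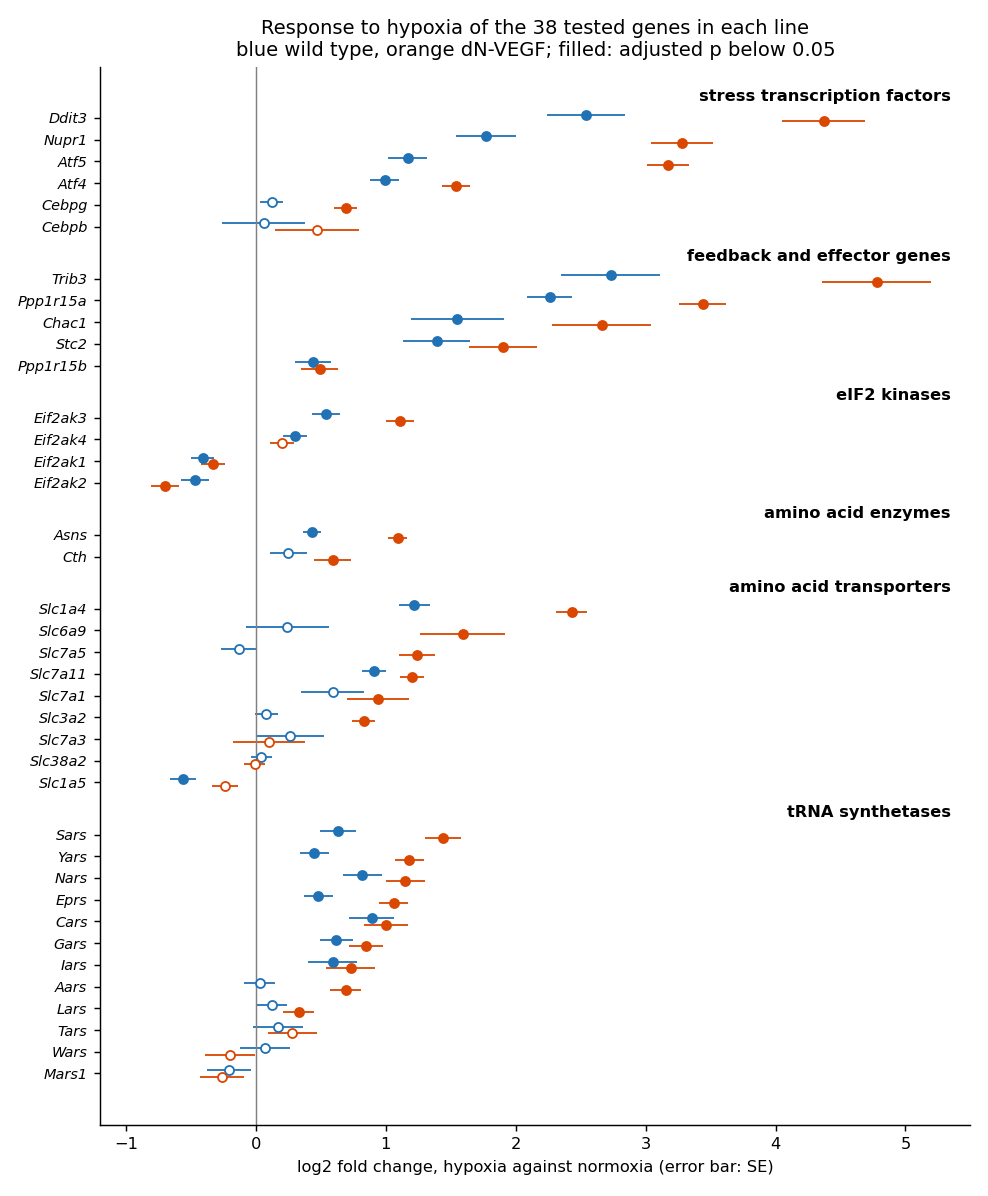
Log2 fold change between hypoxia and normoxia (horizontal axis) of each of the 38 tested genes, in wild-type cells (blue) and dN-VEGF cells (orange), grouped by role. Points are estimates of the fit, bars are SE, and filled points have an adjusted p below 0.05. Changes reached 2.73 in wild-type and 4.78 in dN-VEGF cells, both for Trib3, while the eIF2 kinases lay between -0.70 and 1.11.

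ATF4 is known to bind, with a C/EBP partner, the C/EBP-ATF response element TGATGNAA. The promoters of the genes (RefSeq, GRCm38.p6, 250 bases before to 50 after the start) were searched for these letters on both strands, as a description only. The list includes genes chosen as parts of the ATF4 pathway, so an excess of the site among them is not independent of that choice. Of the 31 genes with a promoter in the table, 13 held it (41.9%), against 4.51% of all 27025 genes with a promoter and 3.97% of all promoters of that length. The stricter form TGATGCAA, whose matches are part of the first set, was found in 10 of the 31 (32.3%), against 1.03% of all genes and 0.895% of all promoters. Genes with a match included Asns, the transporters Slc1a4 and Slc7a11, the effectors Chac1, Trib3 and Vldlr, the factors Atf3 and Nupr1, and the synthetases Gars, Iars, Tars and Yars. The windows below are shown because their genes are the ones whose levels are described next. Each is written 5′ to 3′ along the gene's strand, with the match in capitals. A site on the other strand appears as its reverse complement.
Trib3 (chr2:152344028-152344057, minus strand): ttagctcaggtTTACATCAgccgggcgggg
Nupr1 (chr7:126625562-126625591, minus strand): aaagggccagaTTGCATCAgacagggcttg
Chac1 (chr2:119351038-119351067, plus strand): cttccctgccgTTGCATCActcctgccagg
Asns (chr6:7693214-7693243, minus strand): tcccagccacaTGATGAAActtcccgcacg
Slc1a4 (chr11:20332699-20332728, minus strand): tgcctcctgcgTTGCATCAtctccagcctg
Slc7a11 (chr3:50443661-50443690, minus strand): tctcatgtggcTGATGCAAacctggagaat
Yars (chr4:129189895-129189924, plus strand): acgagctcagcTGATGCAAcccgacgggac

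Within the windows searched, the site of Asns is 23 bases before the start, that of Slc1a4 is 4 bases before it, and those of Yars and Trib3 are 3 and 14 bases after it, all counted from the RefSeq start. Those of Nupr1 and Chac1 lie 110 and 193 bases before the start. Slc7a11 holds a second match, on the opposite strand, 47 bases before the start. No match was found in the promoters of the 4 eIF2 kinases, of 14 mitochondrial tRNA synthetases or of 10 hypoxia-inducible factor (HIF) target genes. Of the 11 tested genes with a match, 9 rose after hypoxia in wild-type and 10 in dN-VEGF cells. Among the 18 tested genes whose promoter had no match, 9 and 12 rose. Of all tested genes with a promoter in the table, 19.6% of those with a match and 18.3% of those without rose in wild-type cells, and 31.5% and 27.0% in dN-VEGF cells.

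Among the stress transcription factors, hypoxia raised 4 of 6 in wild-type and 5 of 6 in dN-VEGF cells, where 18.2% and 26.9% of all tested genes rose. Total counts gave the same numbers, and without wild-type normoxia replicate 2 they were 4 and 6, with a call for Cebpb in dN-VEGF cells. Atf4 (chr15:80255184-80257541), the factor at the centre of the response, stood at 281, 370 and 284 CPM in wild-type normoxia, 635, 601 and 625 in wild-type hypoxia, 268, 286 and 251 in dN-VEGF normoxia and 776, 770 and 792 in dN-VEGF hypoxia. The hypoxia samples of each line lay above all normoxia samples, and those of dN-VEGF cells above those of wild-type cells. In wild-type cells its log2 rise was 0.99 ± 0.11 (edgeR adjusted p = 4.6e-05), which is 1.99-fold, and in dN-VEGF cells 1.54 ± 0.11 (edgeR adjusted p = 1e-06), which is 2.9-fold. Per kb of exon, Atf4 was the most abundant of the genes in wild-type normoxia, with 132 CPM per kb, ahead of Asns at 94.5 and Gars at 84.1.

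Ddit3 (chr10:127290774-127296288) encodes CHOP, a factor known to act late in the stress response and in cell death. It stood at 35.6, 12.3 and 31.9 CPM in wild-type normoxia, 163, 148 and 154 in wild-type hypoxia, 14.1, 13.3 and 14.3 in dN-VEGF normoxia and 301, 276 and 282 in dN-VEGF hypoxia. The normoxia level was thus lower in dN-VEGF cells than in wild-type replicates 1 and 3, and close to that of wild-type replicate 2, while the hypoxia level was highest in dN-VEGF cells. The rise was 5.81-fold in wild-type (log2 2.54 ± 0.30, edgeR adjusted p = 7.1e-05) and 20.6-fold in dN-VEGF cells (4.37 ± 0.32, edgeR adjusted p = 1.2e-06). Without wild-type normoxia replicate 2 the wild-type rise of Ddit3 was 2.2 ± 0.08. A second row of the same symbol, of 105 bases inside this gene, had 0 counts in all samples. Exons of Ddit3 and Mars1 share 68 bases on opposite strands, which the kit's reads do not tell apart.

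Atf5, a factor whose mRNA is translated under eIF2 phosphorylation much like that of Atf4, showed the greatest difference of the 38 genes between the lines in hypoxia. It stood at 75.3, 51.3 and 79.9 CPM in wild-type normoxia, 145, 166 and 153 in wild-type hypoxia, 48.3, 55.2 and 45.6 in dN-VEGF normoxia and 463, 421 and 456 in dN-VEGF hypoxia. The dN-VEGF hypoxia samples lay far above the other 9. Nupr1, a small chromatin-bound protein induced by stress, stood at 37.5, 17.2 and 34.8 CPM in wild-type normoxia, 107, 94.5 and 104 in wild-type hypoxia, 8.63, 9.26 and 8.72 in dN-VEGF normoxia and 87, 82.2 and 88.5 in dN-VEGF hypoxia. Here the hypoxia levels of dN-VEGF cells lay below those of wild-type cells, and its greater rise came from a lower normoxia level. Atf5 rose by 1.17 ± 0.15 and 3.17 ± 0.16 in wild-type and dN-VEGF cells (edgeR adjusted p = 0.00015 and 8.6e-08), and Nupr1 by 1.77 ± 0.23 and 3.28 ± 0.24 (edgeR adjusted p = 0.00012 and 1.1e-06). Cebpg, a C/EBP partner of ATF4, stood at 37.4, 35.7 and 40 CPM in wild-type normoxia, 42, 37.4 and 43.3 in wild-type hypoxia, 30.8, 34.8 and 31.7 in dN-VEGF normoxia and 53.1, 49.3 and 54.3 in dN-VEGF hypoxia. It had a call in dN-VEGF cells (0.69 ± 0.09, edgeR adjusted p = 0.00011) and not in wild-type cells (0.12 ± 0.09, edgeR adjusted p = 0.35). Cebpb, another C/EBP factor, changed by 0.06 ± 0.32 and 0.47 ± 0.32 with no call in either line, and 20.74% of its exon bases are shared with a gene on the opposite strand.

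**Figure D2:**
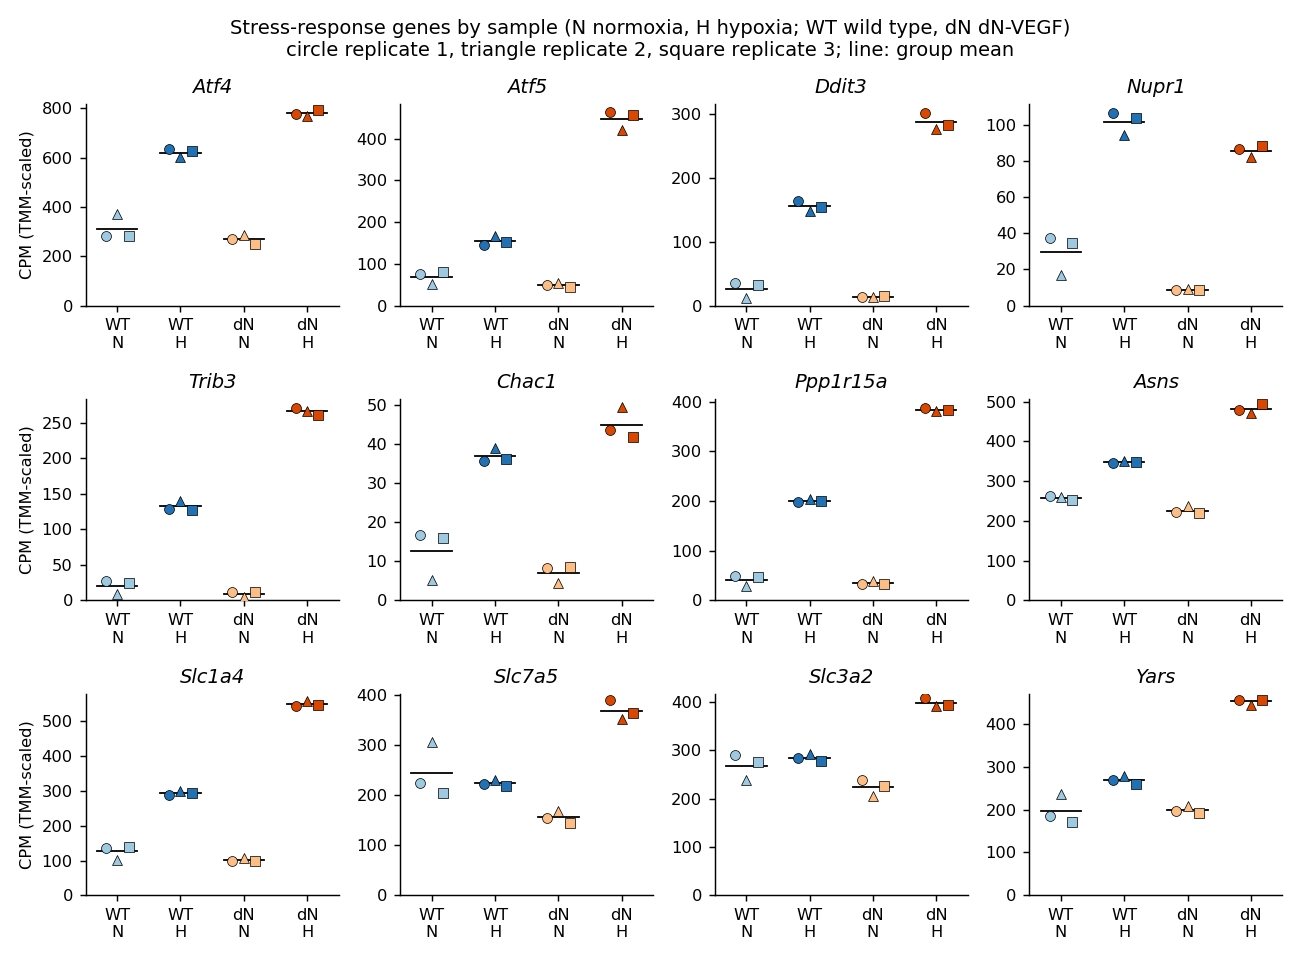
CPM (vertical axis, linear and starting at 0) of 12 genes in each of the 12 samples, by group (WT wild type, dN dN-VEGF, N normoxia, H hypoxia), with a symbol per replicate number and a line at the group mean. dN-VEGF hypoxia was the highest group for each of these genes except Nupr1. For each gene except Asns, wild-type normoxia replicate 2 (triangle) lay outside the range of replicates 1 and 3, for example at 12.3 CPM against 35.6 and 31.9 for Ddit3.

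All 5 tested feedback and effector genes rose after hypoxia in both lines, with and without wild-type normoxia replicate 2 (18.2% and 26.9% of all tested genes rose in the fit on all samples), although with total counts Ppp1r15b lost its call in each. Trib3, a pseudokinase that binds and restrains ATF4 and CHOP, had the greatest rise of the 38 genes in both lines. It stood at 26.9, 8.94 and 24 CPM in wild-type normoxia, 129, 140 and 128 in wild-type hypoxia, 12.3, 5.47 and 11.4 in dN-VEGF normoxia and 271, 267 and 261 in dN-VEGF hypoxia. In normoxia both samples numbered 2 were the lowest of their groups. The rise was 6.64-fold in wild-type (log2 2.73 ± 0.38, edgeR adjusted p = 0.00022) and 27.4-fold in dN-VEGF cells (4.78 ± 0.42, edgeR adjusted p = 4.1e-06). Ppp1r15a encodes the stress-induced subunit that directs a phosphatase to eIF2 and so ends the block of translation. It stood at 49.9, 29.1 and 47 CPM in wild-type normoxia, 199, 204 and 200 in wild-type hypoxia, 34.1, 39 and 33 in dN-VEGF normoxia and 388, 380 and 383 in dN-VEGF hypoxia. Its levels in hypoxia were tight within each line and did not overlap, with a rise of 2.26 ± 0.17 in wild-type and 3.44 ± 0.18 in dN-VEGF cells (edgeR adjusted p = 2.8e-06 and 9.9e-08). Ppp1r15b, the constitutive subunit of the same phosphatase, rose less, by 0.44 ± 0.14 and 0.49 ± 0.14 (edgeR adjusted p = 0.033 and 0.014).

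Chac1, which breaks down glutathione, stood at 16.7, 5.25 and 15.9 CPM in wild-type normoxia, 35.8, 39 and 36.2 in wild-type hypoxia, 8.29, 4.45 and 8.6 in dN-VEGF normoxia and 43.7, 49.5 and 41.8 in dN-VEGF hypoxia. As for Trib3, the normoxia samples numbered 2 were the lowest, and the hypoxia samples of the lines lay close but did not overlap. It rose by 1.55 ± 0.36 in wild-type and 2.66 ± 0.38 in dN-VEGF cells (edgeR adjusted p = 0.0064 and 0.00016). Stc2, a secreted glycoprotein induced by endoplasmic reticulum stress and hypoxia, stood at 22.1, 48.2 and 20.2 CPM in wild-type normoxia, 80.4, 75.2 and 80.8 in wild-type hypoxia, 38.2, 38.2 and 38 in dN-VEGF normoxia and 138, 144 and 144 in dN-VEGF hypoxia. For Stc2 wild-type normoxia replicate 2 was the highest of its group, at 2.28 times the mean of replicates 1 and 3. The rise of Stc2 was 1.39 ± 0.26 in wild-type and 1.90 ± 0.26 in dN-VEGF cells (edgeR adjusted p = 0.0018 and 0.00013), and 1.90 ± 0.07 and 1.89 ± 0.06 without that sample.

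Of the 4 eIF2 kinases, the wild-type line had 2 rises and 2 falls and the dN-VEGF line 1 rise and 2 falls, where 36.5% and 53.3% of all tested genes were called, in near equal parts higher and lower. Each line had 2 of each without wild-type normoxia replicate 2. Eif2ak3, which encodes PERK, the kinase that senses unfolded proteins in the endoplasmic reticulum, stood at 22.4, 17 and 21.1 CPM in wild-type normoxia, 30.2, 27.6 and 30 in wild-type hypoxia, 21.1, 21.1 and 20.4 in dN-VEGF normoxia and 45.5, 44.1 and 45.8 in dN-VEGF hypoxia. The normoxia levels of the lines overlapped and the hypoxia levels did not. Its rise was 0.54 ± 0.11 in wild-type (edgeR adjusted p = 0.0024) and 1.11 ± 0.11 in dN-VEGF cells (edgeR adjusted p = 8.9e-06), and with total counts the wild-type value of Eif2ak3 was 0.30 with no call. Eif2ak2, which encodes PKR, the sensor of double-stranded RNA, stood at 27.3, 22.4 and 27.7 CPM in wild-type normoxia, 19.6, 17.1 and 19.2 in wild-type hypoxia, 25, 27.1 and 28.8 in dN-VEGF normoxia and 16.7, 16 and 17.1 in dN-VEGF hypoxia. It fell by 0.47 and by 0.70 on the log2 scale (SE 0.11 each, edgeR adjusted p = 0.0059 and 0.00029). Eif2ak1, which encodes the heme-regulated kinase HRI, fell too.

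Eif2ak1 stood at 31, 34.8 and 31.8 CPM in wild-type normoxia, 23.9, 25.5 and 24.2 in wild-type hypoxia, 37.7, 34.6 and 39.2 in dN-VEGF normoxia and 29.8, 28.9 and 29.8 in dN-VEGF hypoxia. It fell by 0.41 in wild-type and by 0.33 in dN-VEGF cells (SE 0.09 each, edgeR adjusted p = 0.0037 and 0.0074). For Eif2ak1, 11.62% of the exon bases are shared with Aimp2 and Ankrd61 on the opposite strand. Eif2ak4, which encodes GCN2, the sensor of uncharged tRNA, rose by 0.30 ± 0.09 in wild-type cells (edgeR adjusted p = 0.02) and had no call in dN-VEGF cells (0.20 ± 0.09, edgeR adjusted p = 0.073). With total counts its values were 0.07 and -0.20 with no call, so the direction of Eif2ak4 in dN-VEGF cells depended on the scaling. In wild-type normoxia the 4 kinases had mean levels of 3.35 to 5.74 CPM per kb.

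Of the enzymes, Asns, which makes asparagine and is a long-known target of ATF4, stood at 264, 259 and 252 CPM in wild-type normoxia, 347, 351 and 349 in wild-type hypoxia, 222, 237 and 219 in dN-VEGF normoxia and 478, 472 and 494 in dN-VEGF hypoxia. Its 4 groups did not overlap, and wild-type normoxia replicate 2 lay between replicates 1 and 3. The rise was 0.43 ± 0.07 in wild-type (edgeR adjusted p = 0.00073) and 1.09 ± 0.07 in dN-VEGF cells (edgeR adjusted p = 5e-07), and with total counts the wild-type value of Asns was 0.20 (edgeR adjusted p = 0.056). Cth, which makes cysteine from cystathionine, was much lower. It stood at 8.94, 7.96 and 7.7 CPM in wild-type normoxia, 10.9, 8.08 and 10.2 in wild-type hypoxia, 5.64, 4.74 and 5.49 in dN-VEGF normoxia and 7.8, 7.33 and 8.74 in dN-VEGF hypoxia. It rose in dN-VEGF cells (0.59 ± 0.14, edgeR adjusted p = 0.0052, and 0.18 with no call with total counts) and had no call in wild-type cells (0.25 ± 0.14).

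Of the 9 amino acid transporters, 2 rose and 1 fell in the wild-type line, which is 33.3% called against 36.5% of all tested genes. In dN-VEGF cells 6 rose and none of the tested 9 fell (66.7% called against 53.3%). Total counts gave 2 higher and 2 lower in wild-type and 6 higher and 2 lower in dN-VEGF cells. Leaving out wild-type normoxia replicate 2 gave 3 rises and 1 fall in wild-type and 6 rises and 1 fall in dN-VEGF cells. Slc1a4, a carrier of alanine, serine and cysteine, stood at 137, 101 and 140 CPM in wild-type normoxia, 288, 300 and 293 in wild-type hypoxia, 99.7, 106 and 100 in dN-VEGF normoxia and 542, 556 and 545 in dN-VEGF hypoxia. It had the greatest rise of the 9 in each line, 1.22 ± 0.12 in wild-type and 2.43 ± 0.12 in dN-VEGF cells (edgeR adjusted p = 1.4e-05 and 6.5e-08). Slc7a11, the cystine-glutamate exchanger, stood at 10.6, 12.4 and 11.1 CPM in wild-type normoxia, 21.2, 21.6 and 21.2 in wild-type hypoxia, 9.45, 9.52 and 9.67 in dN-VEGF normoxia and 21.7, 21.9 and 22.5 in dN-VEGF hypoxia. Unlike Slc1a4 it reached close levels in both lines, with rises of 0.91 ± 0.09 and 1.20 ± 0.09 (edgeR adjusted p = 1.9e-05 and 1.3e-06).

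The chains of the large neutral amino acid carrier LAT1 moved in dN-VEGF cells. Slc7a5, its transporting chain, stood at 223, 305 and 204 CPM in wild-type normoxia, 221, 230 and 218 in wild-type hypoxia, 155, 169 and 145 in dN-VEGF normoxia and 390, 351 and 363 in dN-VEGF hypoxia. Slc3a2, the heavy chain that it shares with Slc7a11, stood at 290, 239 and 275 CPM in wild-type normoxia, 283, 293 and 278 in wild-type hypoxia, 238, 206 and 225 in dN-VEGF normoxia and 407, 392 and 393 in dN-VEGF hypoxia. For both genes the wild-type normoxia and hypoxia samples overlapped while the dN-VEGF samples did not. In dN-VEGF cells Slc7a5 rose by 1.24 ± 0.14 and Slc3a2 by 0.83 ± 0.09 (edgeR adjusted p = 2.5e-05 for each), and in wild-type cells their values were -0.13 ± 0.14 and 0.08 ± 0.09 with no call. With total counts Slc7a5 was called lower in wild-type cells (-0.34, edgeR adjusted p = 0.013).

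Slc6a9, a glycine carrier, stood at 121, 38.5 and 103 CPM in wild-type normoxia, 104, 106 and 100 in wild-type hypoxia, 47.9, 31.2 and 43.6 in dN-VEGF normoxia and 127, 112 and 131 in dN-VEGF hypoxia. Its rise was called in dN-VEGF cells (1.59 ± 0.33, edgeR adjusted p = 0.0019), and 30.25% of the exon bases of Slc6a9 are shared with genes on the opposite strand. Slc1a5, a carrier of glutamine and other neutral amino acids, went the other way. It stood at 100, 107 and 97.2 CPM in wild-type normoxia, 66.9, 72 and 68 in wild-type hypoxia, 85.1, 101 and 82.3 in dN-VEGF normoxia and 79.2, 67.9 and 79.8 in dN-VEGF hypoxia. It fell by 0.56 (SE 0.10, edgeR adjusted p = 0.0015) in wild-type cells and its value in dN-VEGF cells was -0.24 ± 0.10 (edgeR adjusted p = 0.067, and 0.00013 with total counts). Slc7a1, a carrier of arginine and lysine, rose in dN-VEGF cells (0.94 ± 0.24, edgeR adjusted p = 0.0074), and its wild-type value of 0.59 ± 0.24 became 1.07 ± 0.08, with a call, without wild-type normoxia replicate 2. Slc38a2, a glutamine carrier known to be induced by amino acid lack, had values of 0.04 ± 0.08 and -0.01 ± 0.08 with no call. Slc7a3, another carrier of cationic amino acids, was at most 1.61 CPM in any sample, with no call.

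**Figure D3:**
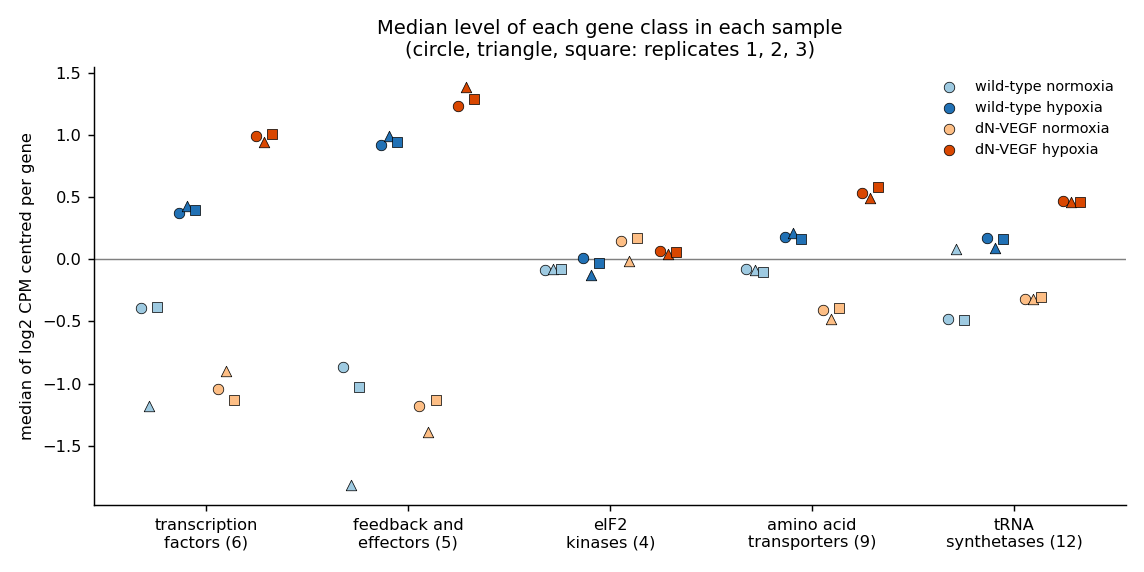
Median over the tested genes of each class of log2 CPM centred per gene on its mean over the 12 samples (vertical axis), for each sample, by group and replicate. The median of the 12 synthetases was 0.46 to 0.47 in dN-VEGF hypoxia and 0.09 to 0.17 in wild-type hypoxia. In wild-type normoxia it was -0.48 and -0.49 in replicates 1 and 3 and 0.08 in replicate 2.

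The tRNA synthetases load amino acids onto their tRNAs. Of the 12 cytosolic members, 7 were called in wild-type and 9 in dN-VEGF cells, all higher, which is 58.3% against 36.5% and 75% against 53.3% of all tested genes. There were 9 rises in wild-type cells without normoxia replicate 2, and dN-VEGF cells then had 10 rises and the falls of Mars1 (-0.27 ± 0.06) and Wars (-0.21 ± 0.08). With total counts 6 rose and 1 fell in wild-type and 7 rose and 2 fell in dN-VEGF cells. Sars, the seryl-tRNA synthetase, stood at 391, 265 and 386 CPM in wild-type normoxia, 520, 565 and 528 in wild-type hypoxia, 290, 247 and 295 in dN-VEGF normoxia and 752, 745 and 766 in dN-VEGF hypoxia. Its rise of 1.44 ± 0.14 in dN-VEGF cells was the greatest of the class (edgeR adjusted p = 9.5e-06), and that in wild-type cells was 0.63 ± 0.14 (edgeR adjusted p = 0.0045, and 0.10 with total counts). Yars, the tyrosyl-tRNA synthetase, stood at 184, 236 and 172 CPM in wild-type normoxia, 269, 278 and 259 in wild-type hypoxia, 197, 208 and 192 in dN-VEGF normoxia and 456, 443 and 456 in dN-VEGF hypoxia. The normoxia levels of the lines overlapped, and in hypoxia those of dN-VEGF cells were higher. It rose by 0.45 ± 0.11 in wild-type and by 1.18 ± 0.11 in dN-VEGF cells (edgeR adjusted p = 0.0088 and 7.9e-06).

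Nars and Cars, the synthetases of asparagine and cysteine, rose to overlapping levels in both lines. Nars stood at 260, 401 and 266 CPM in wild-type normoxia, 569, 510 and 557 in wild-type hypoxia, 247, 274 and 251 in dN-VEGF normoxia and 581, 545 and 584 in dN-VEGF hypoxia. Cars stood at 85.4, 138 and 83.5 CPM in wild-type normoxia, 192, 183 and 193 in wild-type hypoxia, 86.2, 103 and 86.7 in dN-VEGF normoxia and 183, 186 and 181 in dN-VEGF hypoxia. Nars rose by 0.82 ± 0.15 and 1.15 ± 0.15 (edgeR adjusted p = 0.0014 and 8.5e-05) and Cars by 0.89 ± 0.17 and 1.0 ± 0.17 (edgeR adjusted p = 0.0018 and 0.00052). The levels of the lines in hypoxia differed by 0.06 ± 0.15 for Nars and -0.04 ± 0.17 for Cars on the log2 scale.

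Eprs and Aars, the synthetases of glutamate with proline and of alanine, were higher in dN-VEGF than in wild-type hypoxia. Eprs stood at 272, 338 and 274 CPM in wild-type normoxia, 429, 373 and 434 in wild-type hypoxia, 315, 288 and 323 in dN-VEGF normoxia and 653, 598 and 681 in dN-VEGF hypoxia. Aars stood at 489, 620 and 467 CPM in wild-type normoxia, 527, 553 and 530 in wild-type hypoxia, 453, 561 and 455 in dN-VEGF normoxia and 796, 785 and 791 in dN-VEGF hypoxia. Eprs rose in both lines (0.48 ± 0.11 and 1.06 ± 0.11, edgeR adjusted p = 0.0055 and 1.6e-05). Aars rose in dN-VEGF cells (0.69 ± 0.12, edgeR adjusted p = 0.00061) and not in wild-type cells (0.03 ± 0.12), and 14.29% of the exon bases of Aars are shared with Exosc6 on its own strand. Gars and Iars rose in both lines, by 0.62 and 0.59 in wild-type and 0.85 and 0.73 in dN-VEGF cells. Lars rose by 0.33 in dN-VEGF cells and was -0.08 with total counts. Tars, Wars and Mars1 had no call in either line, with values between -0.26 and 0.28.

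Of the 8 other cytosolic synthetases, 1 rose in wild-type cells (Dars, 0.61 ± 0.15, edgeR adjusted p = 0.0089) and 2 fell in dN-VEGF cells (Farsb, -0.68 ± 0.23, and Kars, -0.56 ± 0.19, edgeR adjusted p = 0.028 for each). These are 12.5% and 25% called, against 36.5% and 53.3% of all tested genes. The median change of the 8 was -0.24 in wild-type and -0.34 in dN-VEGF cells, where that of the 12 members was 0.46 and 0.79. The wild-type value of the 8 rested on replicate 2 of normoxia, without which it was 0.23 with 3 rises and 0 falls, and that in dN-VEGF cells -0.35 with 1 rise and 4 falls. Of 17 mitochondrial synthetases, which charge tRNAs for translation inside the organelle, wild-type cells had 1 rise and 5 falls and dN-VEGF cells 3 rises and 6 falls, with medians of -0.25 and -0.26. The called shares, 35.3% and 52.9%, were near those of all tested genes (36.5% and 53.3%). Leaving out the same sample gave 3 rises and 8 falls in wild-type and 3 rises and 9 falls in dN-VEGF cells (64.7% and 70.6% called, against 54% and 67.1% of all tested genes in that fit), with medians of -0.18 and -0.27. The greatest falls in dN-VEGF cells were those of Mars2 (-2.21 ± 0.29, edgeR adjusted p = 7.8e-05), Tars2 (-1.57 ± 0.15, edgeR adjusted p = 7e-06) and Aars2 (-1.13 ± 0.13, edgeR adjusted p = 3.5e-05). Mars2 stood at 7.64, 17 and 8.66 CPM in wild-type normoxia, 4.54, 4.18 and 4.43 in wild-type hypoxia, 11.1, 15.7 and 11.2 in dN-VEGF normoxia and 3.1, 2.54 and 2.57 in dN-VEGF hypoxia. Of the 3 scaffold proteins that hold cytosolic synthetases together, Aimp1 and Aimp2 rose in both lines and Eef1e1 fell in dN-VEGF cells (-1.36 ± 0.33, edgeR adjusted p = 0.0048), and the same calls were made without wild-type normoxia replicate 2.

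**Figure D4:**
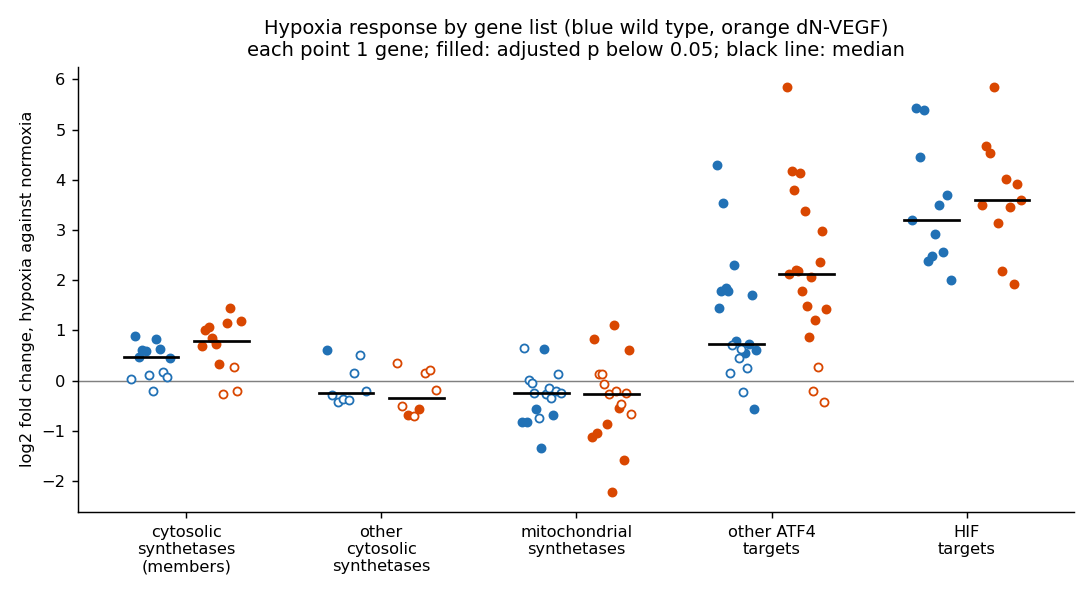
Log2 fold change between hypoxia and normoxia (vertical axis) of each tested gene of 5 lists, in wild-type (blue) and dN-VEGF cells (orange), with the median as a black line and filled points for an adjusted p below 0.05. The 12 cytosolic synthetases had medians of 0.46 and 0.79, the 8 other cytosolic ones -0.24 (0.23 without wild-type normoxia replicate 2) and -0.34, and the 17 mitochondrial ones -0.25 and -0.26. The top point of the ATF4 targets in each line is Adm2, whose fitted value rests on normoxia counts of 2 or fewer.

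In normoxia few of the genes differed between the lines. Of the 38, 3 were lower in dN-VEGF cells and 0 higher (7.89% called against 4.36% of all tested genes, of which 2.97% lower), by edgeR, while 9 were called with DESeq2 (8.16% of all genes it tested) and 0 by edgeR on the 6 normoxia samples alone (0.108%). A change of at least 2-fold was reached by 1 of them, against 2.17% of all tested genes. The 3 were Nupr1 (-1.75 ± 0.23, edgeR adjusted p = 0.0025), Slc7a5 (-0.64 ± 0.14, edgeR adjusted p = 0.026) and Cth (-0.63 ± 0.14, edgeR adjusted p = 0.034). With the replicate number as a block 4 were called, all lower (4.37% of all tested genes), and 1 of these was a tRNA synthetase. The lines did not overlap in normoxia for 10 of the genes, against 16.3% of all tested genes. Without wild-type normoxia replicate 2, 27 of the 38 were called, 11 higher and 16 lower in dN-VEGF cells, against 48.9% of all tested genes. Calls in that fit included lower Ddit3 (-1.27 ± 0.08), Trib3 (-1.37 ± 0.22), Chac1 (-1.18 ± 0.19) and Slc6a9 (-1.44 ± 0.14), and higher Stc2 (0.86 ± 0.07) and Slc7a1 (0.58 ± 0.08). In the fit on all samples these genes had no call, with adjusted p between 0.087 and 0.86. Mars1 changed sign between the fits, from -0.11 to 0.18.

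Wild-type normoxia replicate 2 differed from replicates 1 and 3 in both directions. It lay above both for 11 of 12 synthetases, from 1.08 times their mean for Lars to 1.8 times for Iars, and below both for Sars at 0.682 times. It lay below both for 5 of 6 transcription factors, at 0.364 times their mean for Ddit3 and 0.412 times for Cebpb, and above both for Atf4 at 1.31 times. Among the feedback and effector genes, Trib3, Chac1 and Ppp1r15a lay below at 0.351, 0.322 and 0.6 times and Stc2 and Ppp1r15b above at 2.28 and 1.52 times. Of the 9 transporters it lay above both for 5 and below for 4, and of the 4 eIF2 kinases above for 1, below for 2 and between for 1. Over the 38 genes it lay above for 20, below for 15 and between for 3. Without it the wild-type responses to hypoxia kept their 24 calls and gained those of Slc7a1, Tars and Wars. The responses of the factors and effectors were then 1.14 ± 0.07 for Atf4, 1.0 ± 0.09 for Atf5, 1.5 ± 0.08 for Nupr1, 2.39 ± 0.23 for Trib3, 1.19 ± 0.19 for Chac1 and 2.06 ± 0.08 for Ppp1r15a. Iars moved from 0.59 to 0.93 and Ppp1r15b from 0.44 to 0.68, each by more than 1.5 times. For Slc6a9 the wild-type value went from 0.24 to -0.11, with no call in either fit.

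In hypoxia 14 of the 38 genes were higher and 1 lower in dN-VEGF cells, and 23 had no call (39.5% called against 20.1% of all tested genes, with 10.8% of all tested genes higher and 9.36% lower), with a median of 0.31 against -0.01. With total counts 9 were higher and 4 lower (34.2% called against 26.8% of all tested genes). The higher share of the calls went from 93.3% to 69.2%, as the median of all genes moved to -0.23. A difference of at least 2-fold was called for 1 gene, against 6.81% of all tested genes. Groups did not overlap for 32 of the genes, against 59.8% of all tested genes. Among the genes called higher, the greatest difference was that of Atf5 (1.53 ± 0.15, edgeR adjusted p = 0.00015), followed by Ppp1r15a (0.93 ± 0.17, edgeR adjusted p = 0.0033) and Slc1a4 (0.90 ± 0.11, edgeR adjusted p = 0.00064). Also higher were Ddit3 (0.89 ± 0.28), Stc2 (0.85 ± 0.26), Yars (0.75 ± 0.11), Slc7a5 (0.72 ± 0.14), Eprs (0.64 ± 0.11), Eif2ak3 (0.62 ± 0.11), Aars (0.56 ± 0.12), Sars (0.49 ± 0.14), Slc3a2 (0.48 ± 0.09), Asns (0.46 ± 0.07) and Cebpg (0.35 ± 0.09). The call of Ddit3 was marginal (edgeR adjusted p = 0.049) and, like those of Cebpg, Eif2ak3, Sars and Slc3a2, was lost with total counts.

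The gene that was lower, Slc7a3, stood at 1.3, 1.11 and 1.19 CPM in wild-type normoxia, 1.61, 1.23 and 1.48 in wild-type hypoxia, 0.839, 0.45 and 0.808 in dN-VEGF normoxia and 0.626, 0.643 and 0.981 in dN-VEGF hypoxia (-0.94 ± 0.27, edgeR adjusted p = 0.033). Atf4 itself had no call between the lines in hypoxia (0.33 ± 0.11, edgeR adjusted p = 0.056), nor had Trib3 (1.01 ± 0.36, edgeR adjusted p = 0.068). Both were called without wild-type normoxia replicate 2, which is not in this contrast but enters the shared estimate of the spread, and 26 of the 38 genes then had a call (42.4% of all tested genes). On the 6 hypoxia samples alone 31 were called (57% of all tested genes). dN-VEGF hypoxia had the highest mean of the 4 groups for 27 of the 38 genes, as it had for 31.3% of all tested genes, and dN-VEGF normoxia the lowest for 21 (27.5% of all tested genes). For 23 genes all 3 dN-VEGF hypoxia samples lay above the other 9, which held for 17.6% of all tested genes.

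Whether the response to hypoxia itself differed between the lines was tested as an interaction. It was greater in dN-VEGF cells for 11 of the 38 genes and smaller for 0 (28.9% called against 3.36% of all tested genes, of which 2.21% greater), with a median of 0.46 against 0.03. The responses of 6 genes differed by at least 2-fold, against 1.56% of all tested genes. Among the 11 were the factors Atf5 (2.0 ± 0.21, edgeR adjusted p = 0.002), Ddit3 (1.83 ± 0.40, edgeR adjusted p = 0.037), Nupr1 (1.5 ± 0.31, edgeR adjusted p = 0.031) and Cebpg (0.57 ± 0.13, edgeR adjusted p = 0.042). So were the transporters Slc7a5 (1.36 ± 0.19, edgeR adjusted p = 0.0069), Slc1a4 (1.20 ± 0.16, edgeR adjusted p = 0.0059) and Slc3a2 (0.75 ± 0.13, edgeR adjusted p = 0.016). The others were Ppp1r15a (1.18 ± 0.23), Sars (0.82 ± 0.20), Yars (0.73 ± 0.16) and Asns (0.66 ± 0.10), with edgeR adjusted p of 0.027, 0.048, 0.032 and 0.009. No call was made for Trib3 (2.04 ± 0.51, edgeR adjusted p = 0.055), Aars (0.66 ± 0.17, 0.059), Eif2ak3 (0.57 ± 0.15, 0.064) or Atf4 (0.54 ± 0.15, 0.079). With the replicate number as a block the count was again 11, but Trib3 (2.01 ± 0.45, edgeR adjusted p = 0.048) and Aars (0.66 ± 0.14, 0.042) had calls and Cebpg and Sars had none (0.05 each after rounding).

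The count of 11 depended on single samples. It was 3 without wild-type hypoxia replicate 1 or without dN-VEGF hypoxia replicate 1 or 3, and 4 without wild-type hypoxia replicate 3 or dN-VEGF normoxia replicate 3. It was 5 without replicate 1 of either normoxia group or replicate 2 of either hypoxia group, 6 without wild-type normoxia replicate 3, 10 without dN-VEGF normoxia replicate 2 and 20 without wild-type normoxia replicate 2. The share of all tested genes moved with it, from 0.493% to 0.573% in the fits with 3 calls, 0.72% to 1.24% in those with 4 to 6, 4.76% with 10 and 44.4% with 20. The calls of Atf5, Slc1a4 and Slc7a5 held under all 20 alternatives tried. Those of the other 8 were lost under 5 (Asns) to 15 (Sars) of them, with adjusted p of at most 0.24, and none of the 11 changed sign. Without wild-type normoxia replicate 2, 20 genes were called, which is 52.6% against 44.4% of all tested genes. In dN-VEGF cells 18 were greater and 2 smaller, where 21.4% and 23% of all tested genes were, and the 11 were among the 18. Their values were then 2.16 for Atf5 and Ddit3, 1.77 for Nupr1, 1.37 for Ppp1r15a, 1.33 for Slc1a4, 1.16 for Slc7a5, 0.96 for Sars, 0.81 for Slc3a2, 0.64 for Asns, 0.60 for Cebpg and 0.57 for Yars. The 2 smaller responses were those of Wars (-0.62 ± 0.12) and Mars1 (-0.34 ± 0.09), whose values on all samples were -0.27 ± 0.27 and -0.05 ± 0.23. With total counts 6 genes were called, all greater (15.8% against 6.13% of all tested genes), as the median of all genes moved from 0.03 to -0.15.

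Of 20 other known targets of ATF4, 19 were tested. Wild-type cells had 12 rises and 1 fall among them, where 18.2% of all tested genes rose, with a median of 0.74. In dN-VEGF cells 16 rose and 0 fell, where 26.9% of all tested genes rose, with a median of 2.13. There were, without wild-type normoxia replicate 2, 14 rises and 1 fall in wild-type and 17 rises and 2 falls in dN-VEGF cells, where 27.1% and 32.8% of all tested genes rose and 26.9% and 34.3% fell. A greater response in dN-VEGF cells was called for 6 of the 19 and a smaller one for 0, against 2.21% and 1.15% of all tested genes. The 6 depended on single samples, with 11 greater and 1 smaller without wild-type normoxia replicate 2 (21.4% and 23% of all tested genes in that fit), 4 greater without dN-VEGF normoxia replicate 2 and 1 greater without any one of the other 10. Adm2, a peptide hormone, was at least 11.9-fold higher in wild-type and at least 15.3-fold higher in dN-VEGF hypoxia, against a floor of 3 counts per library in normoxia. Aldh1l2, a mitochondrial enzyme of folate metabolism, rose by 4.18 ± 0.39 in dN-VEGF cells, and its response was 2.40 ± 0.49 greater there (edgeR adjusted p = 0.029). Pycr1, an enzyme of proline synthesis, stood at 37.5, 14.9 and 34.8 CPM in wild-type normoxia, 49.8, 49 and 47.4 in wild-type hypoxia, 14.6, 14.2 and 15.6 in dN-VEGF normoxia and 80.8, 69.5 and 78.1 in dN-VEGF hypoxia. The response of Pycr1 was 1.62 ± 0.36 greater in dN-VEGF cells (edgeR adjusted p = 0.039). Fgf21, a secreted factor, reached 3.92 to 4.54 CPM in dN-VEGF hypoxia and at most 1.08 in the other groups (interaction 3.98 ± 0.92, edgeR adjusted p = 0.043). Cdkn1a, a cell-cycle inhibitor, and Herpud1, of endoplasmic reticulum protein degradation, rose by 3.54 ± 0.18 and 2.31 ± 0.17 in wild-type cells.

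Of 16 further amino acid transporters 14 were tested, with 2 rises and 3 falls in wild-type cells and 4 of each in dN-VEGF cells, and medians of 0.02 and 0.10. The called shares, 35.7% and 57.1%, were near the 36.5% and 53.3% of all tested genes. The fit without wild-type normoxia replicate 2 gave 6 rises and 4 falls in wild-type and 6 rises and 5 falls in dN-VEGF cells (71.4% and 78.6% called, against 54% and 67.1% of all tested genes). Slc43a2, a carrier of large neutral amino acids, stood at 1.73, 0.975 and 1.19 CPM in wild-type normoxia, 0.96, 1.37 and 1.04 in wild-type hypoxia, 0.818, 1.11 and 0.808 in dN-VEGF normoxia and 8.33, 8.68 and 7.29 in dN-VEGF hypoxia. Only its dN-VEGF hypoxia samples stood apart, and it had the one interaction call of that list (3.36 ± 0.34, edgeR adjusted p = 0.0017). Of 8 subunits of eIF2 and of its exchange factor eIF2B, 1 rose and 2 fell in wild-type and 1 rose and 3 fell in dN-VEGF cells (37.5% and 50% called, near the shares of all tested genes), with medians of -0.19 and -0.52. With wild-type normoxia replicate 2 left out, the medians were 0.38 and -0.53, from 4 rises and 2 falls in the wild-type line and 2 rises and 5 falls in the dN-VEGF line. The direction of the wild-type median of these subunits thus rested on that sample. The falls in both lines were those of Eif2b3 (-1.21 ± 0.27 and -1.89 ± 0.27) and Eif2b4 (-1.05 ± 0.18 and -1.18 ± 0.18), and without that sample the wild-type values were -0.70 ± 0.10 and -0.75 ± 0.08, still called. As a check of the oxygen conditions, 11 of 11 HIF target genes rose in each line, with and without wild-type normoxia replicate 2, with medians of 3.19 and 3.59. The interaction was called for 1 of them, Vegfa (1.57 ± 0.32, edgeR adjusted p = 0.028), where 3.36% of all tested genes were called, and for 7 without that sample, 3 greater and 4 smaller in dN-VEGF cells, where 44.4% were called.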

How the data were processed

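Single reads of 80 bp from the 12 samples were, per the labels and the study's methods, prepared with the Illumina TruSeq RNA kit v2, trimmed with Trim Galore and cutadapt 1.10, aligned to GRCm38.p6 with TopHat2 2.1.0 and Bowtie2 2.2.6, and counted per gene with HTSeq 0.6.1. The authors deposited raw counts, whole numbers with no scaling or filter, for 54446 genes. The kit does not mark strand, and the strand setting of the counting is not given in the sources used here. The number of value columns that match no sample is 0. Columns were matched to samples and groups by the titles, which also give the replicate numbers.

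Counts were compared with edgeR 4.0.16 (limma 3.58.1, R 4.3.3): filterByExpr by group, TMM factors, 4 group means fitted to all 12 samples, and the quasi-likelihood F test. Hypoxia was set against normoxia in each line and dN-VEGF against wild type in each condition, which with the interaction makes 5 comparisons, called at a Benjamini-Hochberg adjusted p below 0.05 over 14724 genes. CPM use TMM-scaled library sizes, and centred log2 CPM a prior count of 2. All comparisons thus share an estimate of the spread. The authors tested pairs of conditions with DESeq2, used here as an alternative in version 1.42.0. The other alternatives were no filter or a minimum of 10 counts in each sample, scaling by RLE or by library totals alone, a fit of only the samples compared, the replicate number as a block, and each sample left out in turn, which for the related lists was added after the data were seen. The code was tested on simulated data.

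The 40 genes, their roles and the lists of related genes and markers were chosen with earlier results of these data known. Values in every sample are given for Atf4, Ddit3, Trib3, Chac1 and Asns, for up to 3 called genes per role and comparison by absolute log2 fold change, and for each gene called in the interaction. From other lists up to 3 called genes per comparison are named by the same measure, and any gene beyond these was chosen after its values were seen. A second deposited row named Ddit3 was not summed with the first. Genes overlapping in exons were found with GENCODE M21 annotation. The promoter sites of 1 gene are counted but not reported here.

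The labels do not say that same-numbered samples share a culture or a day. Samples of the same number deviated from their group means together in normoxia, with correlations across genes of 0.38, 0.50 and 0.36 between the lines. In both normoxia groups the sample numbered 2 stood apart, and deviations from a group mean cancel out. A shift shared by the samples numbered 2 alone would therefore also give positive values for the other numbers. The check thus cannot show whether the other samples pair. In the other comparisons the mean correlation was 0.01 to 0.07, and the numbers were not taken as pairs.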

Additional observations from a re-analysis of the deposited data

Results flagged for a closer look

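The response to hypoxia differed between the lines by the interaction test for 11 of the 38 tested genes (28.9%, against 3.36% of all tested genes). The count was 3 to 20 as each sample was left out in turn, with 0.493% to 44.4% of all tested genes called. The response in dN-VEGF cells minus that in wild-type cells, on the log2 scale, was 2.0 for Atf5, 1.83 for Ddit3, 1.5 for Nupr1, 1.36 for Slc7a5, 1.20 for Slc1a4 and 1.18 for Ppp1r15a. It was 0.82 for Sars, 0.75 for Slc3a2, 0.73 for Yars, 0.66 for Asns and 0.57 for Cebpg. With 3 samples per group, single genes were not tested for a sample that lies apart from the rest.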

How the results depend on the processing

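Of the values of single genes under the alternatives, 5 changed sign where either fit made a call. Without both normoxia samples numbered 2, Cebpb was -0.25 in the wild-type response, Mars1 0.15 between the lines in normoxia and Iars -0.21 in the interaction. Without wild-type normoxia replicate 2 alone Mars1 was 0.18, and with total counts Lars was -0.08 in the dN-VEGF response. The number of called genes was 24, 30, 3, 15 and 11 for the wild-type response, the dN-VEGF response, the lines in normoxia, the lines in hypoxia and the interaction. In that order it ranged from 21 to 27, 29 to 36, 1 to 27, 10 to 26 and 3 to 20 as each sample was left out, and a fold of at least 2 gave 8, 18, 1, 1 and 6. With each sample left out, 26.8% to 54%, 42.9% to 67.1%, 1.1% to 48.9%, 10.1% to 42.4% and 0.493% to 44.4% of all tested genes were called. Without both normoxia samples numbered 2 it was 30 between the lines in normoxia, 31 in hypoxia and 23 for the interaction, with 53.6%, 55.8% and 52.8% of all tested genes called. DESeq2 gave 9 between the lines in normoxia and 17 for the interaction (8.16% and 10.7% of all genes tested), where total counts gave 6 (6.13%) and no filter gave 7 (1.47%). A fit of only the samples compared gave 0 between the lines in normoxia and 31 in hypoxia (0.108% and 57% of all tested genes).

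Adding the replicate number as a block gave 25, 30, 4, 15 and 11 calls, with 38.6%, 55.5%, 4.37%, 22% and 3.29% of all tested genes called. In fits of only the samples compared the block gave 9 for the wild-type response, 32 for the dN-VEGF response, 0 between the lines in normoxia and 32 in hypoxia. The shares of all tested genes called in these fits were 13.3%, 66.2%, 0.00718% and 61.1%. In the interaction, the block over all samples ended the calls of Cebpg and Sars and made calls for Aars and Trib3. Samples of the same number deviated together between the lines in normoxia only, where the block over all samples gave 4 calls against 3.

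Counts of 0 to 4 in every sample leave Atf3 and Vldlr without a value. Whole-gene counts say nothing of translation or of eIF2 phosphorylation, through which this response begins. The wild-type normoxia group rests on samples that disagree, so each value that uses it carries that spread.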
